A study of Mus musculus with 6 samples.

Results

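Ahr and 5 genes of its pathway (Arnt, Ahrr, Tiparp, Cyp1a1 and Cyp1b1) were followed in mouse macrophages treated with SKI-II. They are 6 of the 49315 genes of the deposited count table and were matched by symbol. Ahr was chosen because its counts were lost with SKI-II in these libraries, so its values are given as a description with no test. The other 5 were chosen as its DNA-binding partner, its feedback regulators and its best known targets, with earlier results of these data known. RNA was sequenced from RAW264.7 cells, a transformed mouse macrophage line labelled wild type for genotype. SKI-II is a small molecule first described as an inhibitor of sphingosine kinase. One group of 3 libraries came from cells given 4 μg/mL SKI-II for 24 h, and the other group of 3 came from cells given DMSO, the vehicle, for the same time. The labels do not say whether the libraries of a group came from separate cultures, so p-values measure the spread between these libraries, which may be technical.

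The aryl hydrocarbon receptor (AHR) is a transcription factor of the bHLH-PAS family that waits in the cytosol, bound to HSP90 and its co-chaperones, until it binds a ligand such as a dioxin, a plant indole or a tryptophan breakdown product. It then enters the nucleus, pairs with ARNT and binds DNA at the xenobiotic response element, whose core letters are GCGTG. Its classical targets are the cytochromes P450 of family CYP1, together with AHRR and TIPARP, which both restrain the receptor. In macrophages AHR is known for tempering inflammatory gene expression.

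Ahr lies on the minus strand at chr12:35497974-35535038 (GRCm38, GENCODE M21) and has 3 annotated transcripts. Arnt lies on the plus strand at chr3:95434388-95497240 with 11 transcripts, and Tiparp on the plus strand of the same chromosome at chr3:65528410-65555518 with 3. Ahrr is on the minus strand at chr13:74211118-74292331, Cyp1a1 on the plus strand at chr9:57687928-57703824 and Cyp1b1 on the minus strand at chr17:79701537-79715061. An exon of Ahr overlaps the lincRNA Gm48236 and an exon of Tiparp overlaps the transcribed pseudogene 4931440P22Rik, each on the opposite strand. No source used here gives the strand setting of the counting, so reads of such pairs could not be told apart. The pseudogene near Tiparp held 16 to 32 counts per library, against 273 to 537 for Tiparp.

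The promoters of the 4 genes that AHR is best known to induce are shown because AHR reaches its targets through this core, although its sites can also lie farther from a gene. They are from RefSeq (GRCm38.p6), read 5′ to 3′ on the gene's strand and ending before the RefSeq start or, for Tiparp, before the first exon base of GENCODE M21, with the core GCGTG, or CACGC where the core is on the other strand, in capitals. They cover chr13:74292332-74292581 on the minus strand for Ahrr, chr3:65528197-65528409 on the plus strand for Tiparp, chr9:57697363-57697612 on the plus strand for Cyp1a1 and chr17:79715062-79715311 on the minus strand for Cyp1b1. The Cyp1a1 window lies inside the range that GENCODE M21 gives the gene.
Ahrr: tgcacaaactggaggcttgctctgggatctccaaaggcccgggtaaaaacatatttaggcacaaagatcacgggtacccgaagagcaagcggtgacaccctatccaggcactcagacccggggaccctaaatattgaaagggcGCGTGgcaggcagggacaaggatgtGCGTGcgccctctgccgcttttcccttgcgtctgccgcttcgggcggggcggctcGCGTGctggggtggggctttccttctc
Tiparp: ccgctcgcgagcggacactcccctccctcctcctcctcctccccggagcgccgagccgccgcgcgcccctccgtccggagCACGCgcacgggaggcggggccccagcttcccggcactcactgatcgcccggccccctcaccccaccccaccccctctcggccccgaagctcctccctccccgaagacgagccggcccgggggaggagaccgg
Cyp1a1: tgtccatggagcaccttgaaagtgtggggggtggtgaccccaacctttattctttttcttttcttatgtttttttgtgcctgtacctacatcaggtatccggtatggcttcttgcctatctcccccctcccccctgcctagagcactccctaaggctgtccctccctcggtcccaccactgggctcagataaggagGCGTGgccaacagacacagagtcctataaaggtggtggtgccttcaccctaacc
Cyp1b1: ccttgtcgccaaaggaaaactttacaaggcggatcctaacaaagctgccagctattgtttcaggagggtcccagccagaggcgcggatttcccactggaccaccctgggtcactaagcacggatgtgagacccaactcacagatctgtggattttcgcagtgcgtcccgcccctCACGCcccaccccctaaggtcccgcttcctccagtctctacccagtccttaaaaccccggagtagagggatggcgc
Ahrr held 3 cores, which began 107, 82 and 27 bases before the RefSeq start, and the last of these also fell in the longer form TNGCGTG, which contains the core. Tiparp held 1 core at 170 bases, Cyp1a1 1 at 54 bases, and Cyp1b1 1 at 76 bases before the RefSeq start, which for Tiparp lies beyond the end of the stretch shown. Arnt, which is not a classical target, also held 1, at 29 bases. Among 32851 RefSeq promoter windows of 250 bases, 28.2% held at least 1 core on either strand. Of the same windows, 2.77% held 3 or more cores and 4.10% held the longer form. A match is a description of the letters and not evidence of binding.

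The libraries held 12495957 to 20050677 counts on genes, and 12274 genes passed the filter on low counts. All 8 macrophage markers listed were detected in every library, with summed normalized counts of 141471 to 206356 in DMSO and 86874 to 124388 in SKI-II. Lyz2 held the most of these counts, with means of 109818 in DMSO and 45951 in SKI-II, so the sums mainly follow this gene. Of these markers, Cd14 was higher with SKI-II, and Adgre1, Itgam and Lyz2 were lower. Cd68, Csf1r, Ptprc and Spi1 were not called. Epithelial markers were at 0 in every library. Markers of T cells (2 of 5, Cd3d and Cd3e, at no more than 1 count per library), B cells (3 of 5, Ms4a1 at 0, sums of 0 to 3.96 in DMSO and 4.07 to 5.59 in SKI-II), endothelium (4 of 4, sums of 6.32 to 8.91 and 8.96 to 18.1) and fibroblasts (5 of 6, Lum at 0, sums of 7.92 to 19.0 and 8.59 to 22.8) were at or near 0. The part of the macrophage marker difference in the results below was not tested.

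Ahr was detected at a low level in every DMSO library and in no SKI-II library. Its raw counts were 16, 21 and 14 in DMSO replicates 1, 2 and 3, and 0, 0 and 0 in SKI-II replicates 1, 2 and 3. After TMM scaling the DMSO values were 15.5, 26.5 and 13.9 normalized counts, with a mean of 18.6 ± 6.88 (SD, n = 3). The groups did not overlap. Among all tested genes, 25.5% had every SKI-II library below every DMSO library, and nothing is read from that share for Ahr, which was chosen on this contrast.

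The 51 Ahr counts of the DMSO group have an exact 95% Poisson interval of 38.0 to 67.1, which covers counting error only. At the DMSO rate, the SKI-II libraries would have held 57.1 Ahr counts together. A count of 0 allows up to 3 counts over the 51007778 of the SKI-II group, a level of 0.0588 CPM (counts for every 1000000 counts of the library), against 1.12 CPM in DMSO. With the 51 DMSO counts taken as exact, Ahr was at least 19.0-fold lower with SKI-II. This bound leaves out the counting error of the DMSO sum and the spread between libraries. Without SKI-II replicate 3, the deepest library, fewer counts stood behind the 0 and the bound was 11.7-fold. In RNA from whole cultures, fewer cells that express a gene and less RNA per cell cannot be told apart.

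**Figure D1:**
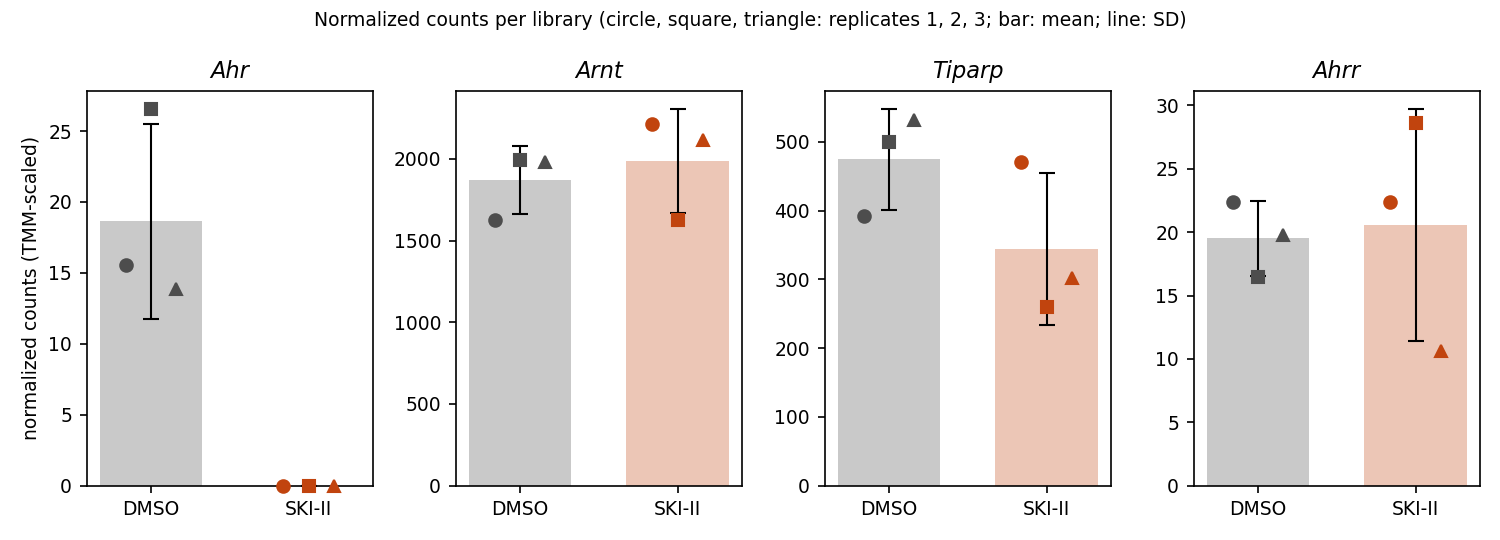
Normalized counts (vertical axes, TMM-scaled, each starting at 0) of Ahr, Arnt, Tiparp and Ahrr in the 3 DMSO and 3 SKI-II libraries. Points are libraries, bars are group means and lines are SDs. Ahr is at 0 in the 3 SKI-II libraries and between 13.9 and 26.5 in the DMSO libraries, whereas the points of the other 3 genes overlap between the groups.

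Few of the genes as low as Ahr were at 0 with SKI-II. Ahr was chosen for its loss of counts, so nothing is read from its place among these genes. Of 520 genes with 10 to 30 counts in every DMSO library, 2 were at 0 in every SKI-II library, Ahr and Ptpdc1, a phosphatase gene. A further 7 of the 520 had 1 to 3 counts over the SKI-II group, namely B3galnt1, AI504432, Aldh1l1, Cntn4, Cers4, Nefh and Lifr. The median gene of the 520 held 58.5 counts over the SKI-II group, with quartiles of 37 and 94.25. Without an upper limit, 11414 genes had at least 10 counts in every DMSO library, and 5 of these were at 0 in SKI-II, namely Ahr, Ptpdc1, Sema6d, Gja1 and Fam49a.

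**Figure D2:**
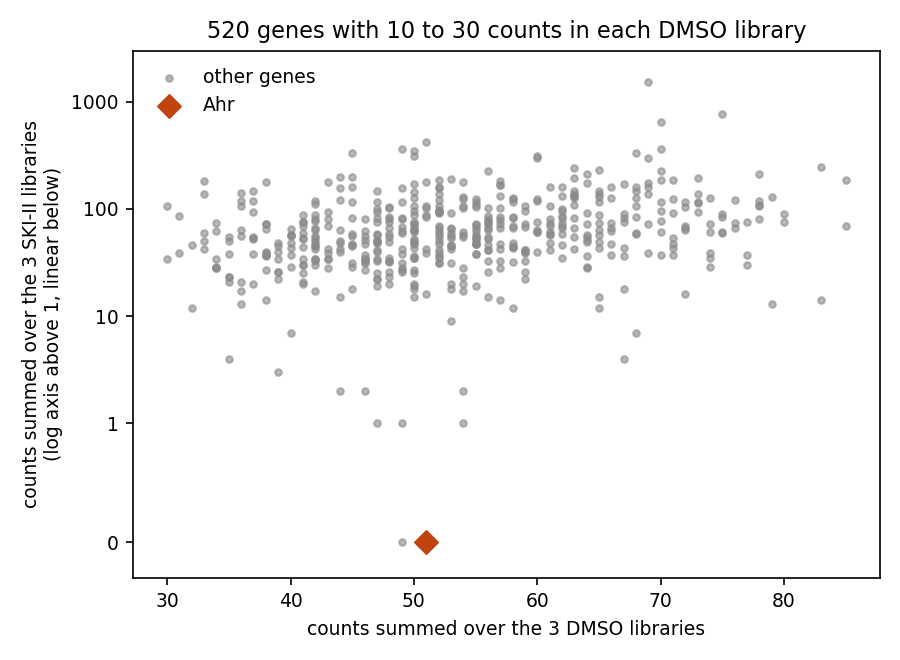
Counts summed over the 3 SKI-II libraries (vertical axis, logarithmic above 1 and linear below) against counts summed over the 3 DMSO libraries (horizontal axis) for the 520 genes with 10 to 30 counts in every DMSO library. The diamond is Ahr, with 51 counts in DMSO and 0 in SKI-II, and the grey points are the other genes, 1 of which (Ptpdc1) is also at 0.

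The 5 genes whose pattern was nearest to that of Ahr were found by Euclidean distance over the 6 libraries, among tested genes. The distance was taken on log2(normalized count + 1), after each gene's own DMSO mean on that scale was subtracted. It therefore compares patterns around that mean and not levels. Ptpdc1 was the nearest, at a distance of 0.576 on the log2 scale, with 16, 15 and 18 counts in DMSO and 0 in every SKI-II library. Gja1, which encodes the gap junction protein connexin 43, followed at 1.05 with 27, 32 and 20 counts in DMSO and 0 in SKI-II. Aldh1l1, a folate enzyme, stood at 1.13, Fam49a at 1.32 and Lifr, the receptor for leukaemia inhibitory factor, at 1.33. Aldh1l1 had 1 count in SKI-II replicate 3 and Lifr 1 count in SKI-II replicate 2, and both were otherwise at 0 there. The order depends on the pseudocount. With 5 in place of 1, none of these 5 was among the nearest, which were then Tnik, Tspyl4, Spc24, Egfl7 and Gm13091.

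Arnt, which encodes the partner that AHR needs to bind DNA, was abundant in both groups. Its raw counts were 1677, 1580 and 2001 with DMSO, against 1981, 1703 and 2600 with SKI-II. The normalized counts of 1869 ± 208 in DMSO and 1987 ± 317 in SKI-II (SD, n = 3 each) overlapped. The log2 fold change was 0.09 (SE 0.15, 95% interval -0.24 to 0.42, adjusted p = 0.674 in edgeR's quasi-likelihood test). The interval still allows smaller changes in either direction.

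Ahrr, which encodes a repressor that competes with AHR for ARNT, was low in both groups. It had 23, 13 and 20 counts with DMSO, against 20, 30 and 13 with SKI-II. The groups overlapped, at 19.5 ± 2.97 and 20.5 ± 9.16 normalized counts (SD, n = 3 each). The log2 fold change was 0.05 (SE 0.43, 95% interval -0.91 to 1.01, adjusted p = 0.940 in edgeR). At counts this low the interval still allows a change of about 1 log2 unit in either direction. The sign was not stable, since the value was -0.27 without SKI-II replicate 2 and 0.38 without SKI-II replicate 3.

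Tiparp, which encodes a mono-ADP-ribosyltransferase that marks AHR and lowers its activity, had a lower mean with SKI-II that did not pass the test. It had 404, 395 and 537 counts with DMSO, against 420, 273 and 370 with SKI-II. SKI-II replicate 1, at 470.0 normalized counts, lay within the DMSO range of 392 to 532, and SKI-II replicates 2 and 3 lay below it at 260 and 301. The means were 474 ± 72.9 and 344 ± 111 (SD, n = 3 each), with a log2 fold change of -0.47 (SE 0.23, 95% interval -0.97 to 0.04, adjusted p = 0.132 in edgeR). Without SKI-II replicate 1 the log2 fold change was -0.76 with an adjusted p of 0.0182, and over all alternatives the adjusted p ran from 0.0182 to 0.379.

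Cyp1a1 and Cyp1b1, the xenobiotic monooxygenases most used as readouts of AHR, had 0 counts in all 6 libraries. Over the 96536322 counts of the series, this allows up to 0.0311 CPM for each gene. The limit was 0.0659 CPM over the DMSO group and 0.0588 over the SKI-II group, so a difference between the groups was not detectable for either gene at this depth. Of the 6 genes, 4 had any count and passed the filter on low counts. Of the 3 of these that were tested, 0 were called at an adjusted p below 0.05 in edgeR, against 18.4% of all tested genes called higher and 19.7% called lower. The count was also 0 at an unadjusted p below 0.05, and 0 by the adjusted p of DESeq2 and of limma-voom. Without SKI-II replicate 1, Tiparp was called lower.

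Levels of different genes were compared per length, as CPM per kb of merged exon. In DMSO, Arnt stood highest at 14.5 ± 1.27 (SD, n = 3), Tiparp followed at 6.76 ± 0.775, and their library values of 13.2 to 15.8 and 5.86 to 7.25 did not overlap. Ahr came far below at 0.190 ± 0.0737 and Ahrr at 0.129 ± 0.0226, and the library ranges of these 2 genes, 0.132 to 0.273 and 0.110 to 0.154, overlapped. Cyp1a1 and Cyp1b1 came last, at 0. Among 21734 protein-coding genes, 83.7% were below Arnt, 72.7% below Tiparp, 49.8% below Ahr and 48.5% below Ahrr in DMSO, a ranking in which genes with no count are included.

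On the same per-length scale, Ahr RNA was scarce relative to Arnt RNA. The Ahr level was 1.24%, 1.73% and 0.909% of the Arnt level in DMSO replicates 1, 2 and 3. Tiparp was at 44.3%, 45.9% and 49.3% of Arnt in DMSO and at 39.0%, 29.5% and 26.1% in SKI-II. In SKI-II the order was Arnt at 15.4 ± 2.44, Tiparp at 4.92 ± 1.63 and Ahrr at 0.136 ± 0.0616, with Ahr at 0 beside the CYP1 genes.

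**Figure D3:**
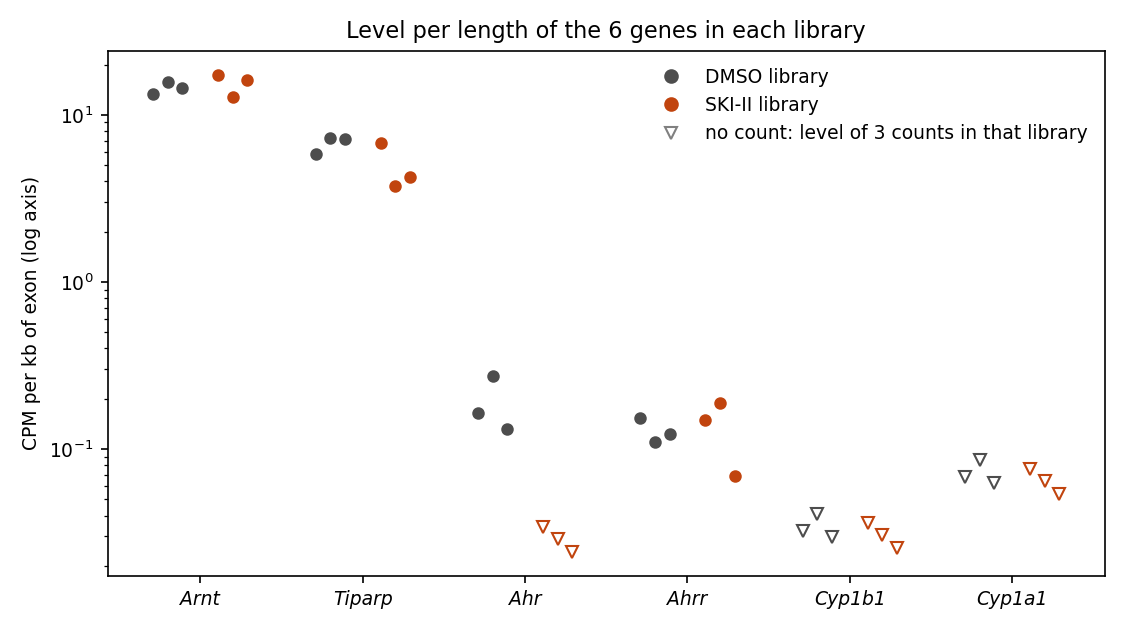
Level per length (vertical axis, logarithmic, CPM per kb of exon) of the 6 genes in each library. Filled points are libraries with counts, and open triangles mark the level of 3 counts where a library had none. Arnt and Tiparp lie above Ahr and Ahrr in every library, and Ahr has triangles in the 3 SKI-II libraries.

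Genes around the receptor were described with 7 lists of 93 genes in all, of which 80 had any count and 61 were tested. The lists were written with earlier results of these data known, so their shares are a description. SKI-II was followed by higher counts for 12 (19.7%) and lower counts for 17 (27.9%) of the 61, beside 18.4% higher and 19.7% lower over all tested genes. Their median log2 fold change was -0.06, against 0.00 over all genes. Leaving out a library gave 9 to 11 genes higher and 13 to 18 lower.

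The cytosolic complex that holds AHR contains HSP90, its co-chaperones and a kinase. The list for this complex has 7 genes, all tested, and also holds the nuclear export receptor gene Xpo1. Hsp90ab1, the constitutive HSP90, fell from 51594 ± 4955 to 28669 ± 1040 normalized counts (SD, n = 3 each). Its log2 fold change was -0.85 (SE 0.15, adjusted p = 0.0021 in edgeR). All SKI-II libraries were below all DMSO libraries for Hsp90ab1, as in 25.5% of all tested genes. Ptges3, which encodes the co-chaperone p23, fell by 0.53 on the log2 scale (adjusted p = 0.0060), and Xpo1, the nuclear export receptor, fell by 0.50 (adjusted p = 0.0064). Src, the kinase of the complex, rose by 0.67 (adjusted p = 0.0323) in groups that overlapped. The Src call was lost on leaving out replicate 1 or 2 of DMSO, or replicate 1 or 3 of SKI-II, with adjusted p of 0.0531 to 0.129.

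With 3 of 7 genes lower, 1 higher and 3 not called, the median log2 fold change of the complex was -0.23. The inducible HSP90 gene Hsp90aa1 had a log2 fold change of 0.06 (adjusted p = 0.799) and the kinase co-chaperone Cdc37 one of 0.05 (adjusted p = 0.822), and both took the other sign when some single libraries were left out.

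Genes for the turnover of AHR were lower in 3 of 8 cases and higher in 0, with a median log2 fold change of -0.40. The count of higher genes was also 0 at an unadjusted p below 0.05, and with DESeq2 and limma-voom. The count of lower genes was 4 with DESeq2, with library size alone, with the stricter filter of 10 counts per library and with the replicate block. Tbl3, named as a part of the AHR-containing CUL4B ubiquitin ligase, fell from 1819 ± 153 to 1051 ± 97.8 normalized counts (log2 fold change -0.79, SE 0.13, adjusted p = 0.0010). Cul4b, the scaffold of that ligase, fell by 0.46 (adjusted p = 0.0433), and Stub1, which encodes the chaperone-linked ubiquitin ligase CHIP, fell by 0.43 (adjusted p = 0.0228). When replicate 2 or 3 of DMSO, or replicate 1 or 2 of SKI-II, was left out, the calls of Cul4b and Stub1 were lost, at adjusted p of 0.0656 to 0.162 and 0.0566 to 0.0857, and the count of lower genes was 1. The ring protein gene Rbx1 was at -0.38 (adjusted p = 0.0519), and the other 4 genes of the list were not called.

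Of the bHLH-PAS relatives of AHR, 9 of 16 were tested and 1 was called, beside 18.4% higher and 19.7% lower over all tested genes. Bmal1, the clock gene, rose from 403 ± 45.2 to 651 ± 86.5 normalized counts (log2 fold change 0.69, SE 0.15, adjusted p = 0.0062 in edgeR). All SKI-II libraries were above all DMSO libraries for Bmal1, as in 24.8% of all tested genes. Hif1a, the hypoxia factor that also pairs with ARNT, was at -0.14 (adjusted p = 0.563) and Arnt2, the sister gene of Arnt, at 0.56 (SE 0.45, adjusted p = 0.359), and neither was called. Epas1 was at -0.97 (adjusted p = 0.0626) and Npas1 at -1.03 (adjusted p = 0.0501), and neither passed the test. The list's count of lower genes was 0 in edgeR and in DESeq2, and 2, Epas1 and Npas1, were below an unadjusted p of 0.05. It was 1 with limma-voom and 1 without SKI-II replicate 1.

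Among 15 coregulators, all tested, 5 were lower (33.3%) and 1 was higher (6.67%), beside 19.7% and 18.4% over all tested genes. Their median log2 fold change was -0.07. Rb1, the retinoblastoma protein gene, fell from 586 ± 69.4 to 264 ± 51.4 normalized counts (log2 fold change -1.15, SE 0.18, adjusted p = 0.00092). Smarca4, the BRG1 chromatin remodeller, fell from 6681 ± 241 to 3868 ± 81.8 (log2 fold change -0.79, adjusted p = 0.00057), and Sp1 and Carm1 fell by 0.73 and 0.70. Relb, the NF-κB subunit that binds AHR, fell by 0.81 (adjusted p = 0.0241), a call lost when replicate 3 of DMSO, or replicate 1 or 2 of SKI-II, was left out (adjusted p of 0.0525 to 0.0881). Klf6, a zinc finger partner of AHR, rose by 0.74 (adjusted p = 0.0063). Ep300 was at 0.19 (adjusted p = 0.336) and was not called.

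The detoxification battery beyond CYP1 went both ways, with 2 higher and 2 lower of the 5 genes tested out of 12. Over all tested genes, 18.4% were higher and 19.7% lower. Xdh, xanthine dehydrogenase, had 1710, 1249 and 2217 counts with DMSO, against 5660, 5416 and 5994 with SKI-II. That is a rise of 1.59 on the log2 scale (SE 0.16, adjusted p = 8.4e-05). Ugt1a6a, a glucuronosyltransferase whose later exons are shared with the other Ugt1a genes so that its counts are uncertain, rose by 1.18 (adjusted p = 0.0205). This call was lost on leaving out replicate 3 of DMSO, or replicate 1 or 2 of SKI-II, with adjusted p of 0.0607 to 0.0777, which left 1 gene higher. Cyp2s1, a cytochrome P450 induced by dioxin, had 129, 67 and 32 counts with DMSO, against 13, 27 and 11 with SKI-II, a log2 fold change of -2.30 (SE 0.54, adjusted p = 0.0083). Ugdh, which makes the glucuronic acid donor, fell by 0.77 (adjusted p = 0.0011).

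Nqo1, a quinone reductase under both AHR and NRF2, was listed at 0 in every DMSO library and at 4, 48 and 9 counts in SKI-II replicates 1, 2 and 3. Most of its counts came from SKI-II replicate 2, and it was under the filter for the test. Nfe2l2, which encodes NRF2, was at a log2 fold change of -0.01 (SE 0.12, 95% interval -0.27 to 0.24, adjusted p = 0.945), a value whose sign changed on leaving out DMSO replicate 3 or SKI-II replicate 2. Cyp1a2 and Inmt were at 0 in all libraries, as were the CYP1 members above. Aldh3a1, Gsta1 and Gsta2 had at most 2 counts in a library, none of them in DMSO, and Ugt1a6b had 0 to 10 without separation of the groups.

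Of 22 other genes known to respond to AHR in some cell type, 12 were tested. Among these, 6 were higher and 3 lower, beside 18.4% higher and 19.7% lower over all tested genes. Their median log2 fold change was 0.53. Ptgs2, which encodes COX-2, had 207, 264 and 414 counts with DMSO, against 6270, 7809 and 8797 with SKI-II, a rise of 4.52 on the log2 scale (SE 0.21, adjusted p = 6.9e-06). Every SKI-II library was above every DMSO library for Ptgs2, as in 24.8% of all tested genes. Nedd9, a docking protein gene, rose by 2.25 (SE 0.21, adjusted p = 5.0e-05), and Stc2, Vegfa and Cd36 rose by 0.98, 0.88 and 0.45.

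Scin, which encodes the actin-severing protein scinderin, fell the most of the AHR targets tested. It had 258, 179 and 107 counts with DMSO, against 19, 12 and 31 with SKI-II, a log2 fold change of -3.31 (SE 0.40, adjusted p = 0.00023). The cyclin gene Ccng2 had 224, 270 and 454 counts with DMSO, against 148, 64 and 72 with SKI-II, a log2 fold change of -1.84 (SE 0.40, adjusted p = 0.0061). SKI-II replicate 1 lay above the other SKI-II libraries for Ccng2, as it did for Tiparp, and without it the log2 fold change was -2.49. Cdkn1b, the cell cycle inhibitor p27, fell by 0.69 (adjusted p = 0.0059), and Cdkn1a, p21, was at 0.04 (adjusted p = 0.889). The amino acid transporter gene Slc7a5 was at -0.10 (adjusted p = 0.584). Il6 had 0, 0 and 0 counts with DMSO, against 4, 0 and 8 with SKI-II, and Il1b had at most 3 counts in any library.

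Tryptophan breakdown supplies ligands of AHR, and 4 of its 13 listed genes were at 0 in every library, namely Ido1, Ido2, Kynu and Aadat. Of the 5 tested, 1 was higher and 1 was lower, beside 18.4% higher and 19.7% lower over all tested genes. Afmid, the formamidase that makes kynurenine, rose from 119 ± 22.1 to 223 ± 10.8 normalized counts (log2 fold change 0.91, SE 0.20, adjusted p = 0.0055). Kyat3, a kynurenine aminotransferase, fell by 0.90 (adjusted p = 0.0227), and this call was lost when replicate 2 or 3 of DMSO, or replicate 1 or 3 of SKI-II, was left out (adjusted p of 0.0542 to 0.0793). Tdo2, tryptophan dioxygenase, had 11, 8 and 6 counts with DMSO, against 16, 5 and 18 with SKI-II and was not called (adjusted p = 0.526). Il4i1, an amino acid oxidase that also makes AHR ligands, had 0 to 8 counts per library and was under the filter.

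**Figure D4:**
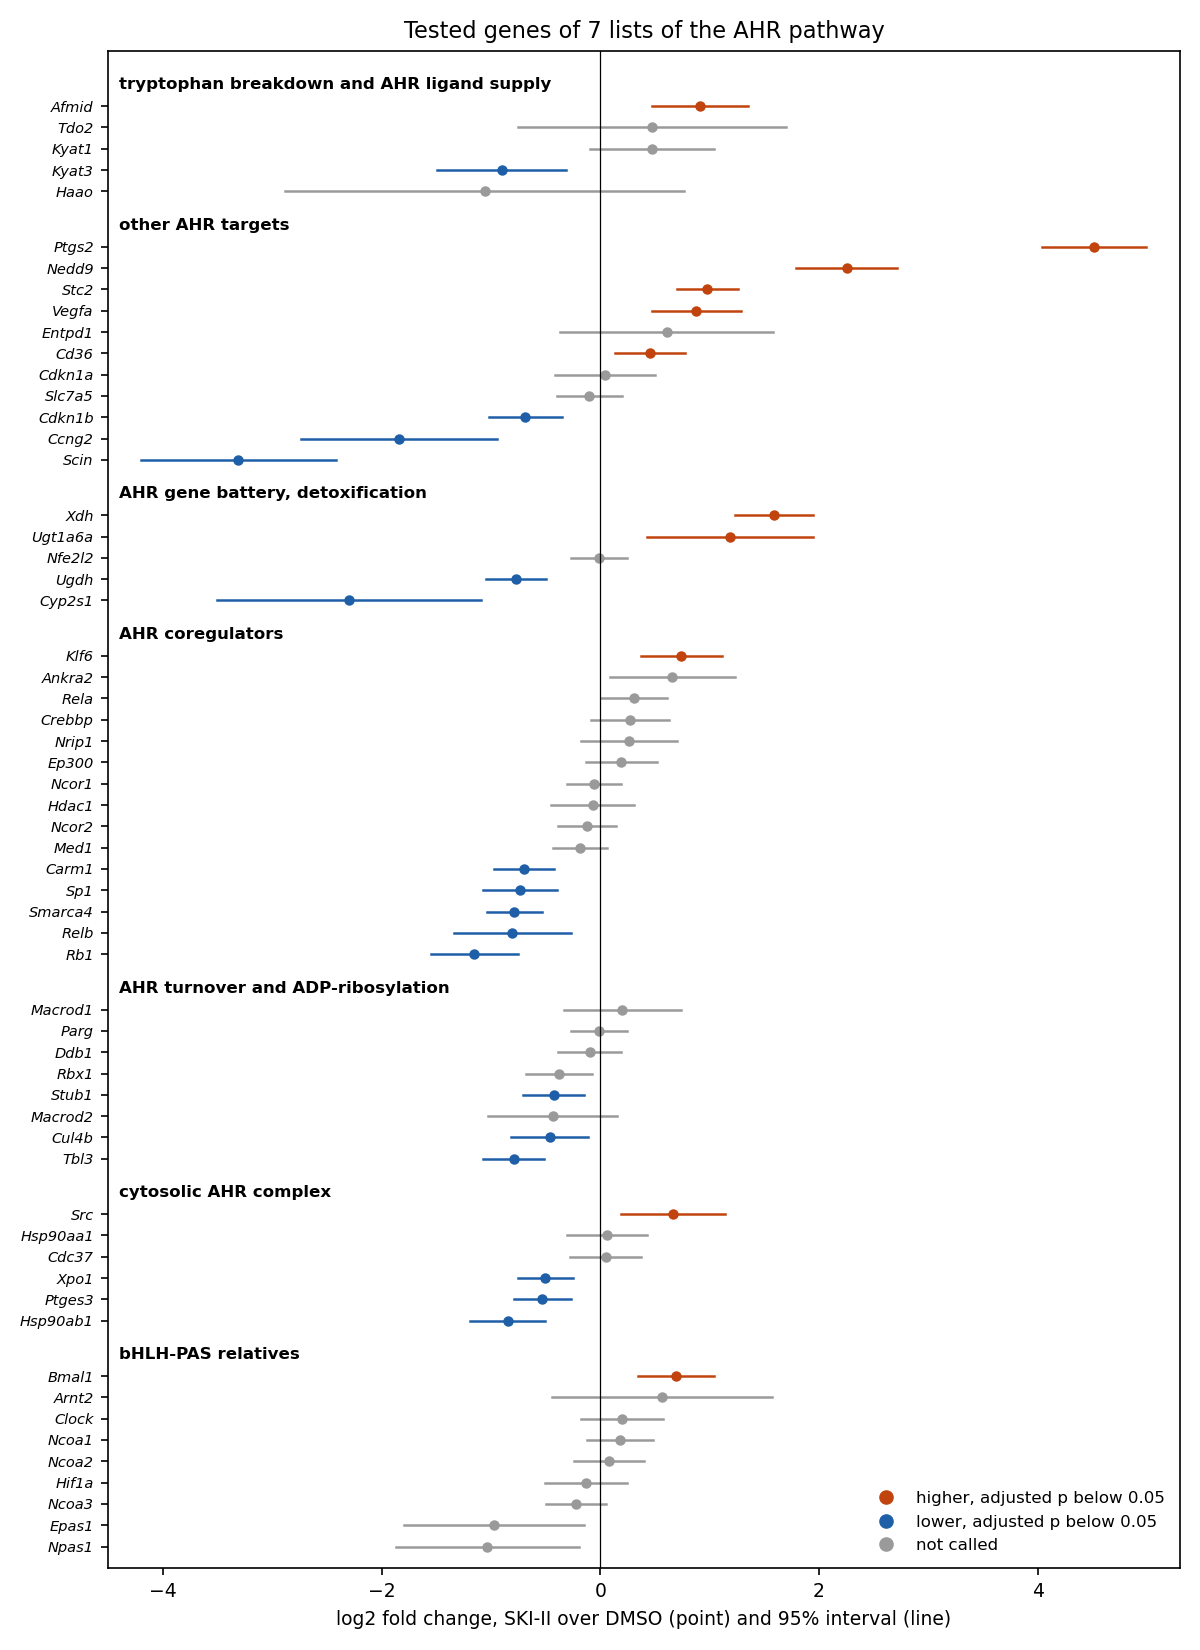
Log2 fold change with SKI-II against DMSO (horizontal axis, lines are 95% intervals) of 59 tested genes of the 7 lists around AHR. Orange marks the 11 of these called higher, blue the 17 called lower and grey the 31 not called at an adjusted p below 0.05. Ptgs2 lies farthest to the right at 4.52 and Scin farthest to the left at -3.31.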

How the data were processed

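RNA of RAW264.7 cells was captured with oligo(dT) and made into libraries with the NEBNext Ultra II RNA kit. Per the submitters' processing notes, tools named are Trimmomatic 0.36, STAR 2.5.2b, featureCounts of Subread 1.5.2 and DESeq2. No source used here gives the genome build, the annotation or the strand setting. The deposited table used here holds raw read counts per Ensembl gene for each library, with no normalization, and all 6 columns were used. Groups came from the sample labels, and dose and time from the methods of the study.

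Gene names and positions came from GENCODE M21 (GRCm38), which named 48970 of the 49315 IDs. All listed symbols were matched. The members and lists were chosen with earlier results of these data known. Groups were compared with the quasi-likelihood test of edgeR 4.0.16 (R 4.3.3) after TMM scaling and filterByExpr by group (minimum count 10, minimum total 15), and p-values were adjusted over the 12274 genes that passed (Benjamini-Hochberg). The common coefficient of variation between libraries was 17.5%. An adjusted p below 0.05 made a call. Normalized counts are counts scaled to the mean TMM-scaled library size of 16042400, to 6 digits. A count of 0 over a group was taken to allow 3 counts. Libraries of a group differed by more than sampling noise (chi-square per degree of freedom 16.5 to 62.7), so each counted as 1 replicate.

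Named genes were the 6 members, the 5 genes nearest to Ahr, all genes of the cytosolic complex and the detoxification battery, and in each list the 3 largest rises and falls among called genes. Some genes that this rule or the lists hold are counted but not reported here by name. Sp1, Carm1, Stc2, Vegfa, Cd36, Cdkn1a, Slc7a5, Rbx1, Ep300, Epas1, Npas1, Hif1a, Arnt2, Tdo2, Il4i1, Il6 and Il1b were named after their values were seen, as were Ahr's neighbours, the genes at or near 0 with SKI-II, the genes nearest to Ahr at a pseudocount of 5, the markers singled out and the tryptophan genes at 0. Alternatives were DESeq2 1.42.0, limma-voom 3.58.1, other scalings, filters and prior counts, a replicate block, and leaving out each library. Same-numbered libraries were not paired by the labels.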

Additional observations from a re-analysis of the deposited data

How the results depend on the processing

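The bound for Ahr ran from 11.7-fold to 21.5-fold over the fits that left out a library, and it was 18.9-fold with the RLE scaling. The values of Arnt and Ahrr lay near 0 and changed sign. Arnt was at -0.018 without DMSO replicate 1, at -0.0043 without SKI-II replicate 1, and within a range of -0.018 to 0.22 when libraries were left out. Ahrr was at -0.081 with limma-voom, -0.059 without DMSO replicate 2, -0.019 without SKI-II replicate 1 and -0.27 without SKI-II replicate 2, within a range of -0.27 to 0.38. Tiparp ran from -0.76 to -0.30 and passed the threshold only without SKI-II replicate 1, among the alternatives run. Its adjusted p with no filter was 0.0517. The signs also changed for Hsp90aa1 (range -0.090 to 0.17), Cdc37 (-0.044 to 0.14) and Nfe2l2 (-0.081 to 0.042) when libraries were left out. The cause of these changes was not tested.

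Over the 7 lists, 12 to 15 genes were higher and 17 to 19 lower under the alternatives that kept all libraries. DESeq2 and the run with no filter called 2 coregulators higher rather than 1, and limma-voom and the run with no filter called 1 bHLH-PAS relative lower rather than 0. Leaving out a library gave 0 to 1 genes of the cytosolic complex higher, 1 to 2 of the detoxification battery higher, 1 to 4 of the turnover list lower, 0 to 1 bHLH-PAS relatives lower and 0 to 1 tryptophan genes lower. Of the 5 genes most like Ahr, 0 were shared with the 5 found at a pseudocount of 5.

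With the replicate number as a block, Ahrr was at -0.0097, the lists held 13 genes higher and 19 lower, 2 coregulators were higher and 1 bHLH-PAS relative was lower. Over all genes, the block called 2765 higher and 2819 lower, against 2255 and 2413 without it. Deviations of same-numbered libraries correlated at 0.246, 0.0099 and 0.458, and SKI-II replicate 2 correlated best with DMSO replicate 1, so the numbers were not taken as pairs. Whether same-numbered libraries share a culture or day is not known. Depth limits what can be said of Cyp1a1, Cyp1b1 and Ahrr, and the absence of Ahr counts sets an upper limit, not a level of 0.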

Other observations

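Of the 20 genes in the count table within 1 Mb of Ahr, 5 besides Ahr were tested, and these went in both directions. Among them, 2 were called higher and 2 lower, beside 18.4% higher and 19.7% lower over all tested genes. Hdac9, a class IIa histone deacetylase gene, fell from 1037 ± 46.7 to 401 ± 148 normalized counts (SD, n = 3 each), a log2 fold change of -1.37 (SE 0.24, adjusted p = 0.0018 in edgeR). Bzw2 fell from 1852 ± 253 to 1073 ± 296 (log2 fold change -0.79, adjusted p = 0.0112). Tspan13, a tetraspanin gene, rose by 0.85 on the log2 scale (adjusted p = 0.0298), and Snx13, a sorting nexin gene, rose by 0.44 (adjusted p = 0.0221). Ankmy2 was at 0.34 and was not called (adjusted p = 0.0788). Whether the change of Ahr is related to its surroundings on the chromosome was not tested.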
